A study of Mus musculus with 6 samples.

Results

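The Ly6 genes of mouse chromosome 15 were compared between activated B cells with and without Prmt1, the gene for the main enzyme of asymmetric arginine dimethylation. The 8 genes are Ly6a, Ly6c1, Ly6c2, Ly6d, Ly6e, Ly6i, Ly6k and Lynx1. They were found by symbol among the 39017 genes of the count table and were chosen from their measured values in the comparison of Control with Prmt1-null cells. Their differences in that comparison are therefore given as a description. No p-value is printed for them there, and which of them the fit across all genes called is stated only to describe them. Control libraries came from splenic B cells of 3 Cγ1-cre mice and Prmt1-null libraries from those of 3 Prmt1 F/F Cγ1-cre mice, all C57BL6/J, with 2 females and 1 male in each group and 1 library per mouse. The male was replicate 1 of the Control and replicate 3 of the Prmt1-null group. The age of the mice was not given in the sources used here. The cells were grown for 3.5 days on 40LB cells, a fibroblast feeder line that supplies CD40L and BAFF, with IL-4 (5 ng/ml in the sample labels, while the methods give a lower dose). Such cultures are called iGBs, for induced germinal center B cells, and the feeders had been depleted with an antibody to H2-Kd before RNA extraction. Cre is made from the Cγ1 locus, so Prmt1 is deleted only in cells that have switched this locus on, and Control cells carry Cre without a floxed Prmt1.

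Ly6 proteins are small, cysteine-rich surface proteins with a three-finger fold, most of them held in the membrane by a GPI anchor. Ly6a, known as Sca-1, marks hematopoietic stem cells and is induced on activated lymphocytes. Ly6c1 and Ly6c2 encode the Ly-6C antigen of monocytes, which some T cells and plasma cells also carry. Ly6d marks progenitors committed to the B lineage and stays on mature B cells, Ly6e is induced by interferon, and Lynx1 modulates nicotinic acetylcholine receptors.

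The genes lie on mm10 chromosome 15, all on the minus strand but Ly6e. From the proximal side, Lynx1 (ENSMUSG00000022594) spans chr15:74747852-74753046, Ly6d (ENSMUSG00000034634) chr15:74762056-74763620 and Ly6k (ENSMUSG00000044678) chr15:74796874-74799986. Ly6e (ENSMUSG00000022587) spans chr15:74955051-74959905, Ly6i (ENSMUSG00000022586) chr15:74979534-74983430 and Ly6a (ENSMUSG00000075602) chr15:74994877-74998031. Ly6c1 (ENSMUSG00000079018) spans chr15:75044018-75048830 and Ly6c2 (ENSMUSG00000022584) chr15:75108158-75111970. Ly6i, Ly6a, Ly6c1 and Ly6c2 follow each other there and were close in coding sequence.

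Ly6c1 and Ly6c2 had 93.8% identical bases among 389 aligned coding bases. Ly6a had 86.4% identity with Ly6i, 83.6% with Ly6c2 and 78.1% with Ly6c1. Between Ly6d, Ly6e, Ly6k or Lynx1 and any other of the genes, identity ran from 60.3% to 68.8%. The first 120 coding bases of the similar genes are shown because reads from such stretches can be hard to assign. Of the 120 positions, 16 are not the same in all 4 genes, and capitals mark these positions. The sequences are from GENCODE M21 transcripts (GRCm38, minus strand), are joined over an intron, and span chr15:74996519-74997604 for Ly6a, chr15:74981953-74983059 for Ly6i, chr15:75047420-75048511 for Ly6c1 and chr15:75110578-75111667 for Ly6c2.
Ly6a: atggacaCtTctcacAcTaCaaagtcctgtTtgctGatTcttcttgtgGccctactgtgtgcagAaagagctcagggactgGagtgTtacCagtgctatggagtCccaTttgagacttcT
Ly6i: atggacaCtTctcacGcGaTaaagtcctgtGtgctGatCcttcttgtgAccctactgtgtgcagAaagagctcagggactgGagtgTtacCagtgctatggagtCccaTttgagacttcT
Ly6c1: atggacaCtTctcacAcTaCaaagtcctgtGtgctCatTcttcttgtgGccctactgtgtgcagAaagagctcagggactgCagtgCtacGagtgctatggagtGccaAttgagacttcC
Ly6c2: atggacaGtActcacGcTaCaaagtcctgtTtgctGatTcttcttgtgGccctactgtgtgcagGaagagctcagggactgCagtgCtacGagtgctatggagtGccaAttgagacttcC

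**Figure D1:**
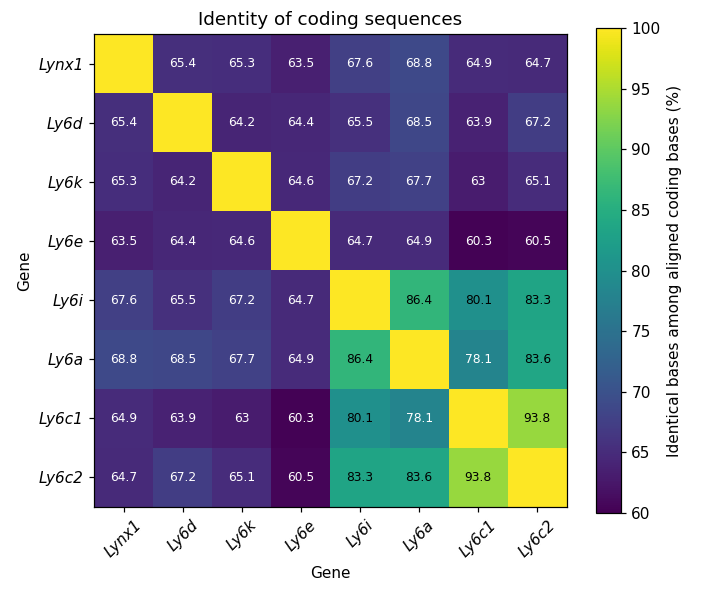
Percent of aligned coding bases that are identical for each pair of the 8 genes, in their order along chromosome 15. Ly6i, Ly6a, Ly6c1 and Ly6c2 form a block from 78.1% to 93.8%, while all other pairs lie between 60.3% and 68.8%.

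Of the stretches of 50 bases in Ly6c1 transcripts, 32.8% also occurred in a transcript of another gene, with 379 of 1764 shared with Ly6c2 and 195 with Ly6a. The share was 19% for Ly6a, 14.5% for Ly6c2 and 4.76% for Ly6i, and 0% for Ly6d, Ly6e and Lynx1. The authors kept alignments to at most 2 locations, so counts of Ly6a, Ly6c1 and Ly6c2 may hold reads of each other and are uncertain to that extent. For Ly6k, 32.7% of the stretches lay in Gm17189, a gene on the opposite strand that overlaps it.

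RefSeq promoter windows of 300 bases (GRCm38.p6, minus strand) were at hand for 2 of the 8 genes, Ly6c1 and Ly6c2, each with 2 start sites. They are shown because both genes were higher in Prmt1-null cells. The window of Ly6c1 at chr15:75048788-75049087 and that of Ly6c2 at chr15:75111922-75112221 shared 78.2% of 266 aligned bases. Capitals mark a match to the NF-kB motif searched, GGGA and CC with any 4 bases between, on either strand.
Ly6c1: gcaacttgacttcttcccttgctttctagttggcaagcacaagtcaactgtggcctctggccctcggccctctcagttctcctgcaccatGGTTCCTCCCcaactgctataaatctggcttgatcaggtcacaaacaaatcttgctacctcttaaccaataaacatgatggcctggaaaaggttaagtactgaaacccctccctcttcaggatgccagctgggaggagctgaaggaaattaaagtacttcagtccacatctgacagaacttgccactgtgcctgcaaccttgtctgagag
Ly6c2: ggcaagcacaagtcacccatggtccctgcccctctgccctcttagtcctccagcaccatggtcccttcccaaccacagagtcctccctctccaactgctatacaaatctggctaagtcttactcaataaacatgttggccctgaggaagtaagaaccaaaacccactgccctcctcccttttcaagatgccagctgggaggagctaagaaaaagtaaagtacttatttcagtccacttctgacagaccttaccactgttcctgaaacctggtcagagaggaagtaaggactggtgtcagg

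Motifs were searched on both strands of all 4 windows. The NF-kB motif matched once in each Ly6c1 window and in the other Ly6c2 window, and 20.7% of the 32851 RefSeq windows hold such a match. This pattern leaves 4 bases open, so a match is not shown to be an NF-kB site, and binding was not tested. No window of the 4 held TTCNNNGAA for STAT factors, the STAT6 motif with 4 bases between TTC and GAA, the interferon response motif of GAAA and GAAA with 2 bases between, or TGANTCA for AP-1. Over all windows their shares were 8.3%, 6.95%, 3.44% and 7.81%.

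Total counts per library ran from 45343250 to 62774232 and did not separate the groups (two-sided exact permutation test, p = 0.4, smallest possible p with 20 arrangements 0.1). A gene with 3 counts, the fewest taken as detected, had 0.0475 to 0.0657 CPM (counts scaled to library size with TMM factors), a floor that covers counting error only. Prmt1 itself had 71.5, 70.8 and 87.2 CPM in Control and 31.5, 26.6 and 26.6 CPM in Prmt1-null libraries, a log2 fold change of −1.44 ± 0.095 (SE, edgeR, adjusted p = 1.11e-05). Of 18268 genes tested, 218 were called, that is, past an adjusted p of 0.05, with 108 higher and 110 lower in Prmt1-null cells. This corresponds to 1.19% called in either direction, 0.591% higher and 0.602% lower, and 13.5% of the tested genes had an unadjusted p under 0.05. The 8 B cell markers fixed as a list summed to 10600 to 12100 CPM in Control and 11800 to 12300 CPM in Prmt1-null libraries. Of these markers edgeR and limma-voom called 0, with 3 at an unadjusted p under 0.05 in edgeR, and DESeq2 called 1. Blk (0.20 ± 0.0709) and Cd79b (0.19 ± 0.0752) were among those with the smallest p, with log2 fold changes and SE in brackets. Counts come from bulk cells, so more cells of a kind and more RNA per cell cannot be told apart.

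All 8 Ly6 genes passed the filter on low counts, and their fitted log2 fold change was above 0 in each. edgeR called 5 of them, all higher in Prmt1-null cells. The 5 were Ly6a, Ly6c1, Ly6c2, Ly6i and Lynx1. The values of the groups did not overlap for these 5 and Ly6d, beside 19.9% of all tested genes. Because these values chose the genes, nothing is read from the counts. The median log2 fold change of the 8 was 0.61 and that of all tested genes −0.001, where the median size of a change was 0.145.

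**Figure D2:**
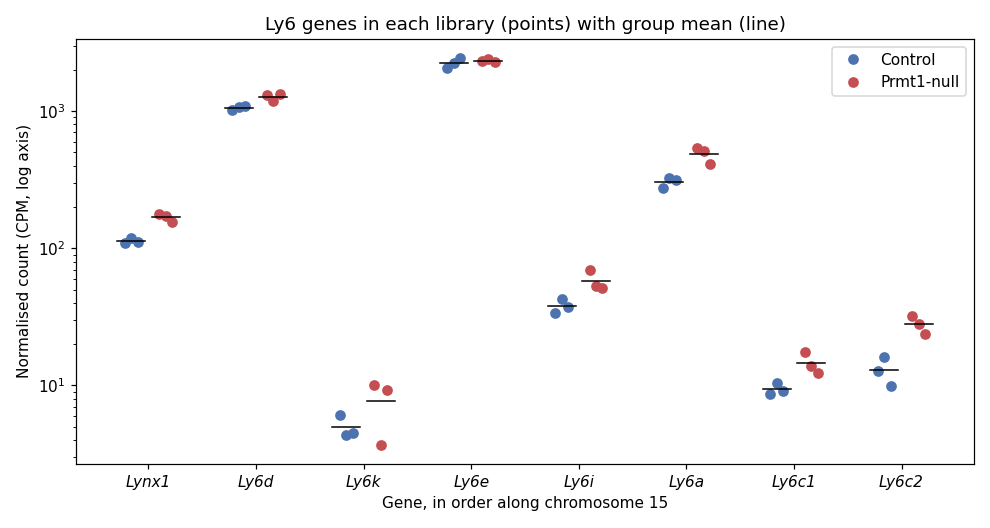
Normalised counts (CPM, log axis) of the 8 genes in each of 3 Control (blue) and 3 Prmt1-null (red) libraries, with a line at each group's mean. The groups overlap for Ly6k and Ly6e and lie apart for the other genes, and levels run from 3.71 CPM for Ly6k to 2430 CPM for Ly6e.

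Ly6a, the Sca-1 gene, had 273, 328 and 316 CPM in Control libraries and 542, 516 and 414 CPM in Prmt1-null libraries. Each Prmt1-null library was above each Control library. The means were 306 ± 29.1 and 491 ± 68.0 CPM (SD, n = 3), a log2 fold change of 0.68 ± 0.0964 (SE) or 1.61-fold. The male library was the lowest of its group in both groups. Ly6i, its closest relative by coding sequence, had 33.8, 42.7 and 37.5 CPM in Control and 69.7, 53.0 and 51.0 CPM in Prmt1-null libraries. The groups lay apart, with means of 38.0 ± 4.48 and 57.9 ± 10.3 CPM, a log2 fold change of 0.61 ± 0.115 and the highest value in Prmt1-null replicate 1. The call of Ly6i was lost without Control replicate 1 (log2 fold change 0.532), without Prmt1-null replicate 1 (0.456) and without Prmt1-null replicate 2 (0.671).

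Of the Ly-6C genes, Ly6c2 had the largest fitted difference of the 8 genes, at 12.7, 16 and 9.99 CPM in Control and 32.2, 28.3 and 23.7 CPM in Prmt1-null libraries. All Prmt1-null values lay above all Control values. The means were 12.9 ± 3.02 and 28.1 ± 4.26 CPM, a log2 fold change of 1.12 ± 0.158 or 2.17-fold. Ly6c1 had 8.65, 10.4 and 9.08 CPM in Control and 17.5, 13.9 and 12.4 CPM in Prmt1-null libraries. The groups lay apart here too, by a smaller margin. Its means were 9.38 ± 0.911 and 14.6 ± 2.61 CPM, a log2 fold change of 0.63 ± 0.142. Leaving out any single library ended the call of Ly6c1, with log2 fold changes from 0.488 to 0.737. With the counts of both genes summed, the log2 fold change was 0.93.

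Lynx1, the gene of a modulator of nicotinic receptors, had 109, 118 and 112 CPM in Control and 178, 171 and 156 CPM in Prmt1-null libraries. Its values were close together within each group and the groups lay well apart. The means were 113 ± 4.15 and 168 ± 11.6 CPM, and the log2 fold change was 0.57 ± 0.0645 or 1.49-fold.

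Ly6d, the B lineage marker, was among the most abundant of the family at 1020, 1070 and 1090 CPM in Control and 1300, 1190 and 1340 CPM in Prmt1-null libraries. The groups did not overlap. edgeR did not call the gene, while DESeq2 and limma-voom did. Its means were 1060 ± 31.9 and 1280 ± 76.7 CPM and its log2 fold change 0.27 ± 0.0635. Without Control replicate 3 edgeR called it too, at a log2 fold change of 0.286. Ly6e, the interferon-induced member, had 2060, 2250 and 2430 CPM in Control and 2300, 2400 and 2270 CPM in Prmt1-null libraries. These groups overlapped, with means of 2240 ± 184 and 2320 ± 67.4 CPM and a log2 fold change of 0.05 ± 0.0654.

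Ly6k had 6.07, 4.35 and 4.53 CPM in Control and 10, 3.71 and 9.24 CPM in Prmt1-null libraries. The groups overlapped, since Prmt1-null replicate 2 held the lowest value of all, and the gene was not called. Its log2 fold change was 0.62 ± 0.283, the widest error of the 8. It was 0.385 without Prmt1-null replicate 1 and 0.959 without Prmt1-null replicate 2. The counts of Ly6k were 1.19 to 1.33 times those of the overlapping Gm17189 in all 6 libraries. The ratios were 1.19, 1.2 and 1.22 in Control and 1.23, 1.3 and 1.33 in Prmt1-null libraries. They did not overlap, but by a narrow margin, 1.22 against 1.23. Each ratio rests on only 172 to 549 counts per gene, and its counting error was not computed, so nothing is read from the margin. The strand setting of the counting is not given in the sources used here, so reads of Ly6k and Gm17189 cannot be told apart.

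Per kilobase of exon the order of the levels was the same for the upper 5 genes in all 6 libraries. Ly6d was first at 1430 ± 42.9 CPM per kb in Control and 1720 ± 103 CPM per kb in Prmt1-null cells. Ly6e followed at 593 ± 48.7 and 614 ± 17.8 CPM per kb. Ly6a came next at 254 ± 24.2 and 407 ± 56.4 CPM per kb, then Ly6i at 32.9 ± 3.88 and 50.1 ± 8.88 CPM per kb and Lynx1 at 24.3 ± 0.891 and 36.1 ± 2.48 CPM per kb. Neighbours in this order did not overlap within either group. The levels of Ly6k, Ly6c2 and Ly6c1 overlapped one another, between 3.65 and 12.1 CPM per kb, and their order cannot be given. Exon lengths joined all annotated isoforms, from 744 bases for Ly6d to 4662 for Lynx1, so a gene with long isoforms that are not used appears lower on this scale.

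Ratios of counts within a library do not depend on its depth. There were 1.47, 1.54 and 1.1 counts of Ly6c2 for each count of Ly6c1 in Control and 1.85, 2.04 and 1.91 in Prmt1-null libraries, so the ratios of the groups lay apart. For Ly6i over Ly6a the ratios were 0.124, 0.13 and 0.119 in Control and 0.129, 0.103 and 0.123 in Prmt1-null libraries, and they overlapped. Ly6a over Ly6e gave 0.132, 0.146 and 0.13 against 0.236, 0.215 and 0.182, again apart. The 8 genes together took 3530, 3840 and 4000 CPM of the Control and 4460, 4380 and 4270 CPM of the Prmt1-null libraries, most of it Ly6e and Ly6d.

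**Figure D3:**
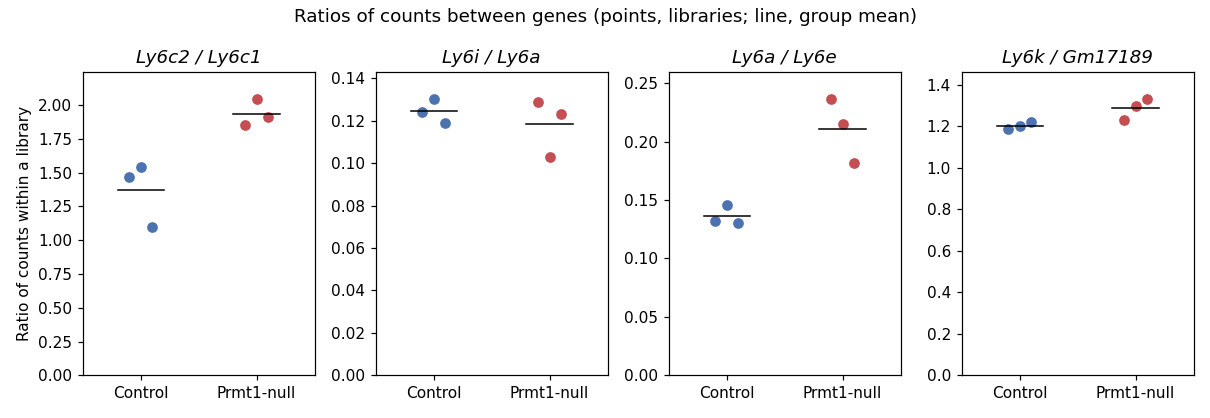
Ratio of the counts of 2 genes within a library, for 3 Control (blue) and 3 Prmt1-null (red) libraries, with a line at each group's mean and each axis starting at 0. Ly6c2 over Ly6c1 and Ly6a over Ly6e lie apart between the groups, Ly6i over Ly6a overlaps, and Ly6k over Gm17189, at 1.19 to 1.22 in Control and 1.23 to 1.33 in Prmt1-null libraries, lies apart by a narrow margin.

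The sex of the mice gave a comparison that had not chosen the genes. With genotype in the fit, 4 female and 2 male libraries were compared, and 0.0712% of all tested genes were called, with 6.92% at an unadjusted p under 0.05. edgeR called 0 of the 8 Ly6 genes, with 2 of them, Ly6a and Ly6i, at an unadjusted p under 0.05, and limma-voom called 0. Ly6a was lower in males at 343 against 426 CPM on average, a log2 difference of −0.30 ± 0.0594 (edgeR, adjusted p = 0.216). DESeq2 called Ly6a alone of the 8 (log2 difference −0.29, adjusted p = 0.000762), and so did edgeR without the filter on low counts (adjusted p = 0.00138). For Ly6i the log2 difference was −0.26 ± 0.104 (edgeR, adjusted p = 0.659). Those of the other genes ran from −0.26 for Ly6c1 to 0.44 for Ly6k.

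The listed genes were compared between the sexes too. Of 27 interferon-stimulated genes, 23 had a lower fitted level in males, beside 51.2% of all tested genes, with 6 at an unadjusted p under 0.05 and 0 called by edgeR. Their sum was 989 to 1010 CPM in the male and 1060 to 1230 CPM in the female libraries. All 4 neutrophil markers tested were lower in males by the fit, and Mpo, the myeloperoxidase of neutrophil granules, was called (log2 difference −6.47 ± 0.899, edgeR, adjusted p = 0.0124). Mpo had 0 and 2 counts in the male libraries, under the floor of 3 counts, and 0.894 to 3.18 CPM in the female libraries. The size of its difference is therefore uncertain. The neutrophil sum was 0 to 1.81 CPM in male and 2.52 to 16.4 CPM in female libraries. Endothelial markers summed to 74.7 to 76.6 CPM in male and 78.8 to 92.6 CPM in female libraries. Genes for the GPI anchor ran the other way, with sums of 976 to 1000 CPM in male and 934 to 975 CPM in female libraries and 11 of 30 lower in males by the fit. For the T cell, monocyte, B cell, plasma cell, feeder, IL-4 and STAT6 and further Ly6 and uPAR lists the sums of the sexes overlapped. In that order, 5 of 6, 5 of 6, 7 of 8, 6 of 12, 3 of 10, 9 of 12 and 4 of 9 tested genes were lower in males by the fit. Among the 8 Ly6 genes it was 6. The part of these genes in the sex difference of Ly6a was not tested.

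Between and around the 8 genes, 1 further gene was called. Ly6m, listed in the counts as 2010109I03Rik and matched to Ly6m by a RefSeq synonym, lies between Ly6k and Ly6e and is a family member with few counts here. It had 3.46, 3.23 and 4.37 CPM in Control and 1.7, 1.51 and 1.4 CPM in Prmt1-null libraries. Each Prmt1-null value was below each Control value, and the log2 fold change was −1.26 ± 0.22 (edgeR, adjusted p = 0.0152), opposite in sign to the 8 genes. The call was lost without Prmt1-null replicate 1 (−1.335, adjusted p = 0.0614), replicate 2 (−1.246, adjusted p = 0.0871) or replicate 3 (−1.199, adjusted p = 0.0758, all edgeR).

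The family's genes on chromosome 15 run from Psca, on the Lynx1 side, to Gpihbp1. The 3 nearest genes beyond Psca were not called, with log2 fold changes of 0.96 ± 0.697 for 4933427E11Rik, 0.50 ± 0.16 for Jrk and −0.99 ± 0.604 for Arc. Beyond Gpihbp1 they were −0.10 ± 0.179 for Zfp41, 0.02 ± 0.544 for 2810039B14Rik and 0.05 ± 0.474 for Top1mt. Them6, which is not of the family and lies between Psca and Lynx1, had 20.7 ± 0.847 CPM in Control and 24.5 ± 1.71 CPM in Prmt1-null libraries. Its groups did not overlap and it was not called (log2 fold change 0.25 ± 0.0972, edgeR, adjusted p = 0.265). Slurp2, a secreted relative next to Lynx1, had 1.38 ± 0.422 CPM in Control and 2.10 ± 0.179 CPM in Prmt1-null libraries and was not called (log2 fold change 0.60 ± 0.29). Ly6g, which defines neutrophils, had 2 counts in Control replicate 2 and 0 in the other libraries. Ly6h, Ly6l and Gpihbp1 had 0 counts in every library.

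**Figure D4:**
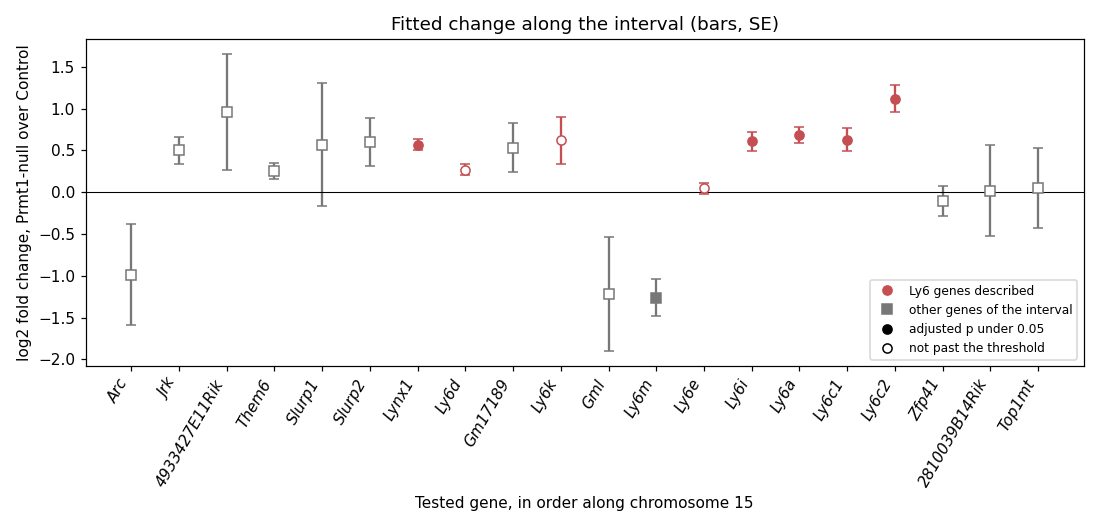
Fitted log2 fold change of Prmt1-null over Control (y axis, bars show SE) for the tested genes in order along chromosome 15, with the 8 Ly6 genes as red circles and other genes as grey squares. Filled symbols passed an adjusted p of 0.05. Ly6i, Ly6a, Ly6c1 and Ly6c2 stand between 0.61 and 1.12, Ly6e at 0.05 and Ly6m at −1.26.

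Outside the 8 genes, 35 further genes of the Ly6 and uPAR family were in the table. Of these, 9 passed the filter, and edgeR called Ly6m alone. The median log2 fold change of the 9 was 0.60, with 6 of the 9 above 0 and none of these 6 called by edgeR. Levels were low, with group means of at most 3.69 CPM, and the SE ran from 0.22 to 0.733, so this median is uncertain. Plaur, the urokinase receptor, had 1.4 ± 0.393 CPM in Control and 2.34 ± 0.608 CPM in Prmt1-null libraries (log2 fold change 0.74 ± 0.297, not called). Pinlyp, an inhibitor of phospholipase A2, had a log2 fold change of −0.07 ± 0.266. There were 14 members of this list at 0 counts in all 6 libraries.

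Most Ly6 proteins need a GPI anchor. Of 30 genes for anchor synthesis and transfer, edgeR called 0, with 3 at an unadjusted p under 0.05, and DESeq2 and limma-voom called 0. The median log2 fold change was −0.02. The 3 with the smallest p were Pigg (−0.36 ± 0.125), Pigl (0.35 ± 0.135) and Pigyl (−0.57 ± 0.239). Of 27 other interferon-stimulated genes, edgeR also called 0, with 5 at an unadjusted p under 0.05, while DESeq2 called 3 and limma-voom 0. Their median log2 fold change was 0.03. Gbp2 (0.36 ± 0.0939), Ddx58 (−0.23 ± 0.0654) and Ifi44 (0.79 ± 0.235) had the smallest p.

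Of 12 genes induced by IL-4 and STAT6, edgeR called 3, each higher in Prmt1-null cells, with 7 at an unadjusted p under 0.05, while DESeq2 called 5 and limma-voom 4. The median log2 fold change was 0.16, with 10 of the 12 above 0. Bcl6, 1 of the 7, was lower (−0.19 ± 0.0663, not called by edgeR), and its groups lay apart. Xbp1 is also among the plasma cell markers. The groups lay apart for 8 of the 12, beside 19.9% of all tested genes. The sum ran from 4100 to 4420 CPM in Control and from 4890 to 4940 CPM in Prmt1-null libraries. Its largest part was Fcer2a (0.13 ± 0.0579, not called by edgeR). Il4i1, an amino acid oxidase, went from 209 ± 14.3 to 307 ± 7.59 CPM (log2 fold change 0.56 ± 0.0643, edgeR, adjusted p = 0.00207). Il4i1 lies at chr7:44816387-44840809, close to Prmt1 at chr7:44975989-44986568. The part of the altered Prmt1 gene nearby in this difference was not tested. Ccl22, a chemokine for CCR4, went from 612 ± 29.3 to 793 ± 15.8 CPM (0.37 ± 0.0615, edgeR, adjusted p = 0.0104), a call that was lost without Prmt1-null replicate 1 (0.381) or 2 (0.394). Batf, an AP-1 factor, went from 25.4 ± 2.84 to 37.3 ± 2.00 CPM (0.56 ± 0.0968, edgeR, adjusted p = 0.0149), a call lost without Control replicate 2 (0.557) or Prmt1-null replicate 1 (0.604), 2 (0.533) or 3 (0.54).

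Markers of cells that carry Ly6 proteins were summed in each library. Of 12 plasma cell markers tested, edgeR called 2, both higher in Prmt1-null cells, with 5 at an unadjusted p under 0.05, while DESeq2 and limma-voom called 4 each. The sum of the markers ran from 1620 to 1740 CPM in Control and from 1840 to 1950 CPM in Prmt1-null libraries, without overlap. Its largest parts were Irf4 (means of 490 and 548 CPM in Control and Prmt1-null), Xbp1 (339 and 414 CPM) and Slamf7 (206 and 244 CPM), none called by edgeR. Sdc1, the gene of CD138, had 1.43 ± 0.227 and 2.06 ± 0.738 CPM, its groups overlapped, and it was not called by edgeR. Txndc5, an oxidoreductase of the endoplasmic reticulum, had a log2 fold change of 0.45 ± 0.0617 (edgeR, adjusted p = 0.00486). Derl3, a factor of protein degradation at the endoplasmic reticulum, had 0.59 ± 0.105 (edgeR, adjusted p = 0.0166), a call lost without Control replicate 2 (0.637) or Prmt1-null replicate 2 (0.596) or 3 (0.521). The groups lay apart for 4 of the 12 markers tested, beside 19.9% of all tested genes. The log2 fold change was above 0 for 9 of the 12 and below 0 for Jchain (−0.09 ± 0.0771), Ell2 (−0.12 ± 0.0715) and Fkbp11 (−0.03 ± 0.613). The part of plasma cells in the differences of the Ly6 genes was not tested.

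The sum of 14 feeder markers ran from 16.7 to 21.3 CPM in Control and from 21.9 to 26.1 CPM in Prmt1-null libraries, also without overlap. Of the 10 tested, edgeR, DESeq2 and limma-voom called 0, with 2 at an unadjusted p under 0.05 in edgeR. Postn and Lum were at 0 in all libraries, and Col1a1 (0.44 ± 0.144), Sparc (0.64 ± 0.291) and Dcn (0.90 ± 0.595) had the smallest p. The level of the Ly6 genes in the feeder cells was not measured here, and the part of feeder RNA in the Ly6 values was not tested.

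Monocyte and macrophage markers, of which 6 of 7 were tested, summed to 40.4 to 45.1 CPM in Control and 42.8 to 47.2 CPM in Prmt1-null libraries. Adgre1, which encodes F4/80, was called higher, at 6.36 ± 0.94 and 10.6 ± 1.16 CPM (log2 fold change 0.73 ± 0.147, edgeR, adjusted p = 0.0319), while 3 of the 6 had a fold change above 0. The call was lost without Control replicate 1 (0.632) or 2 (0.731) and without Prmt1-null replicate 1 (0.759), 2 (0.798) or 3 (0.637). T cell markers summed to 23.7 to 27.8 and 26.0 to 29.1 CPM, most of it Lck (log2 fold change 0.09 ± 0.093), with Cd3g (1.00 ± 0.856) and Cd8a (1.08 ± 1.02) at the smallest p. Endothelial markers summed to 74.7 to 79.5 and 76.6 to 92.6 CPM, most of it Pecam1 (0.18 ± 0.0732), with Emcn at 0 and Cdh5 at −0.55 ± 0.204. Neutrophil markers ran from 0 to 16.4 CPM in Control and from 1.81 to 5.64 CPM in Prmt1-null libraries, with S100a8 (−1.58 ± 0.958), Ngp (−0.99 ± 0.952) and Elane (−0.87 ± 1.15) at the smallest p. The highest sum and most of these Control counts came from Control replicate 2, as for S100a8 with 0, 6.52 and 0.636 CPM in Control and 0.511, 0.997 and 0.92 CPM in Prmt1-null libraries. Without that library the log2 fold changes turned to 1.323, 1.699 and 0.076. Of the T cell, endothelial and neutrophil markers tested (6, 2 and 4), edgeR, DESeq2 and limma-voom called 0, with 0, 2 and 0 at an unadjusted p under 0.05 in edgeR, and the part of these cells in the Ly6 values was not tested.

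The genes most like Ly6a over the 6 libraries, by Pearson's r of log2 CPM among 18267 other genes, were Pim2 (r = 0.995), Tbc1d8 (r = 0.994) and Arfrp1 (r = 0.992). Their log2 fold changes were 0.52, 0.72 and 0.19. Of the family, Lynx1 was nearest to Ly6a (r = 0.98, rank 16), followed by Ly6c1 (0.968, rank 47), Ly6i (0.951, rank 90) and Ly6c2 (0.928, rank 190). Ly6d (0.822), Ly6e (0.524) and Ly6k (0.291) were farther. These are descriptions over libraries that differ in genotype, which is part of what r reflects.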

How the data were processed

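RNA from 6 iGB cultures was sequenced after rRNA depletion with a stranded kit. The authors ran Trimmomatic 0.32 for trimming, STAR 2.3.0e for alignment to mm10 (alignments to at most 2 locations kept) and featureCounts 1.4.4 for counting on Ensembl exons. The deposited values are raw counts, with no normalization. The table has 39017 genes, of which 37693 matched GENCODE M21 by identifier, 803 by symbol and 521 not. The 398 chromosome Y genes were left out, as in the study.

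Counts were tested in R 4.3.3 with edgeR 4.0.16 (filterByExpr with minimum count 10, TMM factors 0.985 to 1.01, glmQLFit and glmQLFTest, Benjamini-Hochberg adjustment, threshold 0.05), Control against Prmt1-null, and male against female with genotype in the fit. All values with ± are SD over libraries for levels and SE for log2 fold changes. The code was tested on simulated data. Each library is 1 mouse, so p-values measure the spread between mice. DESeq2 1.42.0 and limma 3.58.1 gave alternatives. Same-numbered libraries are different mice and their deviations did not correlate.

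The 8 genes, the gene lists and the rules were chosen with earlier results of these data known. Named were the 8 genes, Prmt1, in other lists every called gene (at most 5) or else the 3 with the smallest p, for the family also the 3 with most counts, the 3 nearest genes outside the interval from Psca to Gpihbp1 on each side, and the 3 genes most like Ly6a. Them6, Slurp2, Ly6g, Ly6h, Ly6l, Gpihbp1, Mpo and the markers listed at 0 were named after their values were seen. So were Bcl6, Fcer2a, Irf4, Xbp1, Slamf7, Sdc1, Jchain, Ell2 and Fkbp11. Coding identity was computed from GENCODE transcripts with Biopython 1.88, and shared words over both strands of all transcripts. Proteins were not analysed here. 1 gene that the naming rule gives is not reported here.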

Additional observations from a re-analysis of the deposited data

How the results depend on the processing

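The direction of every one of the 8 genes was kept under all alternatives but for Ly6e, whose log2 fold change ran from −0.005 without Control replicate 1 to 0.111 without Control replicate 3. Since these values chose the genes, the calls below describe the fits and are no support. Ly6a, Ly6c2 and Lynx1 were called under every alternative run, from 0.609 to 0.792, 0.964 to 1.307 and 0.533 to 0.626. With the counts of Ly6c1 and Ly6c2 summed the value was 0.934. Ly6c1 was not called by limma-voom or with the replicate number as a block, and Ly6d was called by DESeq2, limma-voom, without the filter and with sex as a covariate. Ly6k was called only without the filter. The number of genes called, 218, became 709 with DESeq2 and 710 without the filter, 152 with the replicate block, and 31 to 350 with a library left out, lowest without Prmt1-null replicate 2. The number of the 8 genes called, 5, was 6 with DESeq2, 7 without the filter and 4 with the replicate block, and 3 to 5 with a library left out. For sex, 13 genes became 28 with DESeq2, 98 without the filter and 10 to 25 with a library left out, and 0 of the 8 genes became 1 with DESeq2 and 1 without the filter. For the neutrophil markers S100a8, Ngp and Elane, leaving out Control replicate 2 turned the direction, with ranges over left-out libraries of −2.146 to 1.323, −1.709 to 1.699 and −2.475 to 0.076, and limma-voom gave 0.736 for S100a8 and 1.014 for Ngp, and the replicate block 0.007 for Ngp. Without the filter on low counts edgeR called S100a8 (−1.571, adjusted p = 0.000248). The cause of these changes was not tested. Same-numbered libraries had correlated deviations of −0.07, 0.05 and −0.08, so they share only a number. With 3 libraries a group, log2 fold changes of Ly6k and Ly6c2 carry the widest errors of the 8, and both are among the 3 genes with the fewest counts. No result met a rule for a closer look, and groups of 3 were not tested for a library that stands apart.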
